A study of Mus musculus with 4 samples.

Results

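The genes described here code for the cytosolic translation elongation factors and for the kinase that restrains one of them: Eef1a1, Eef1a2, Eef1b2, Eef1d, Eef1g, Eef2 and Eef2k. They were chosen by gene symbol, and all 7 were found once each among the 55382 Ensembl genes of the deposited tables. The data are ribosome footprints from mouse hearts taken on day 15 after birth, where ribosome profiling sequences the stretches of mRNA that ribosomes shield from nuclease. The KO group holds 2 libraries with the genotype label KO, from mice that the design text names NAT10-CKO. The WT group holds 2 libraries with the genotype label WT, from mice named NAT10-FF, whose libraries carry the name FF. Nat10 codes for an RNA acetyltransferase. All 4 libraries share a batch label, a starting amount of about 100 mg of frozen heart and a cycloheximide dose of 100 µg/mL. How the Nat10 allele was altered, in which cells, and whether a library is 1 animal or a pool were not stated in the labels used here. The p-values below therefore reflect variation among 4 libraries that may be technical repeats. The labels give cardiomyocytes as the cell type, but the protocol lysed whole heart tissue, and markers of fibroblasts and endothelium were measured in every library.

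Elongation is the cycle in which a ribosome adds amino acids to the growing chain. eEF1A, bound to GTP, carries each aminoacyl-tRNA to the ribosome. The eEF1B complex, made of the products of Eef1b2, Eef1d and Eef1g, reloads eEF1A with GTP, and eEF2 then moves the ribosome on by one codon. eEF1A comes in forms from separate genes: Eef1a1 is made in nearly all cells, whereas Eef1a2 is known from heart, skeletal muscle and neurons and takes over there from Eef1a1 as striated muscle matures after birth. The kinase eEF2K, switched on by calcium and calmodulin, phosphorylates eEF2 and slows elongation.

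Each library gave an FPKM of footprints per gene, which is scaled by gene length and library size, and a translation efficiency (TE), the authors' ratio of footprints to RNA. Footprint FPKM divided by TE returned the RNA level in that ratio, called the implied RNA level. Depth in reads is unknown. Genes of mitochondrial tRNAs held 57.0% and 48.9% of the summed footprint FPKM in KO replicates 1 and 2. In WT replicates 1 and 2 they held 56.0% and 55.3%. How this share bears on the levels of other genes was not tested. The median footprint level of the 15031 tested genes was 23.3 and 28.7 FPKM in the KO libraries, against 20.4 and 17.3 FPKM in the WT libraries, so that the median log2 difference of all tested genes (KO minus WT) was 0.36 for footprints, 0.22 for implied RNA and 0.15 for TE. Differences are therefore given also relative to these medians. Nat10 itself, the targeted gene, had 40.01 and 52.1 FPKM of footprints in the KO libraries, against 77.3 and 73.9 FPKM in the WT libraries. Neither KO library reached the WT values, and the log2 difference of -0.71 (SE 0.30) missed the threshold of 0.05 (limma, adjusted p = 0.295).

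Among the elongation factors, Eef2 and Eef1a1 carried the most footprints per length and Eef1g and Eef2k the fewest. In KO hearts Eef2 averaged 1903 ± 788 FPKM of footprints and Eef1a1 1804 ± 272 (SD, n = 2), and their libraries overlapped. In WT hearts Eef2 averaged 1210 ± 132 and Eef1a1 798 ± 174 FPKM (SD, n = 2), and the libraries did not overlap. Eef1b2 and Eef1d came next, Eef1a2 followed, and Eef1g and Eef2k overlapped each other in both groups. By implied RNA, Eef1a1 stood first in every library, at 1979 and 1671 FPKM in KO and 886 and 1089 FPKM in WT, above 99.7% of the tested genes in its lowest library. Eef2 was next, and Eef2k last by a wide margin, at 6.83 and 8.02 FPKM of implied RNA in KO and 8.29 and 9.29 in WT.

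**Figure D1:**
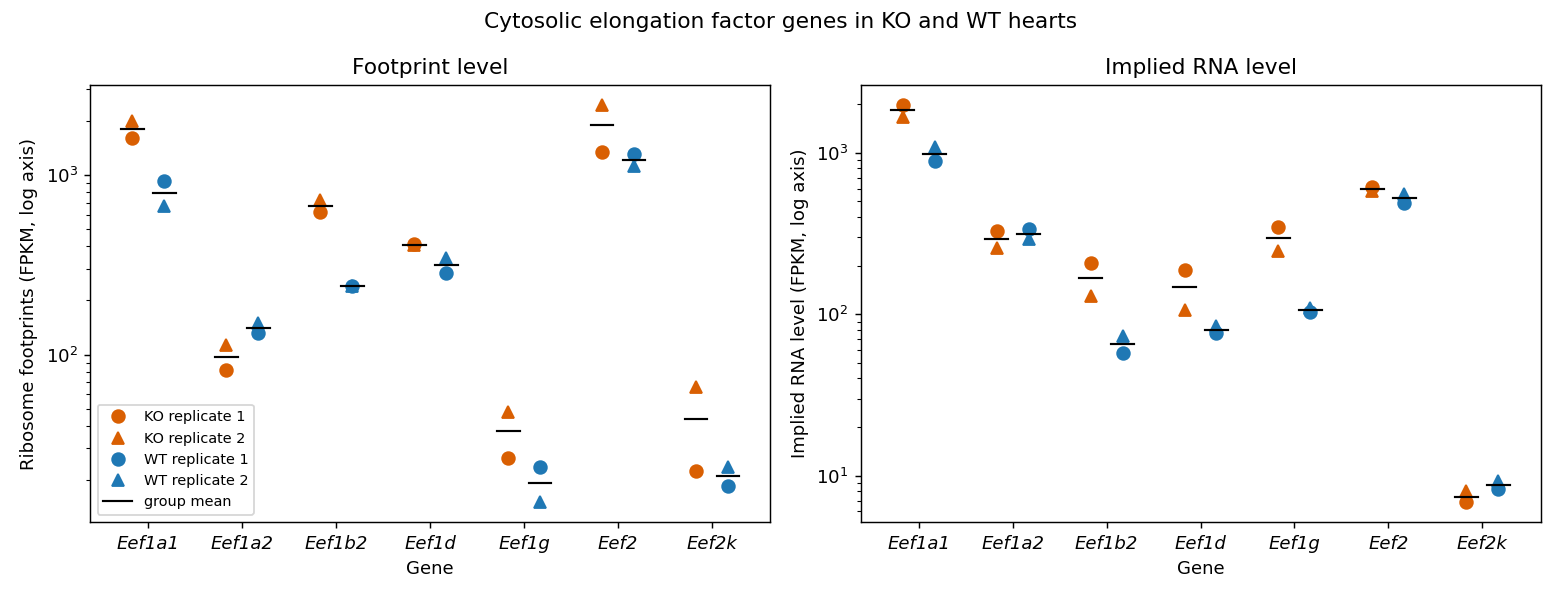
Footprint level (left) and implied RNA level (right) of the 7 elongation factor genes, in FPKM on log axes, with 1 point per library (KO orange, left of WT in blue; circles are replicate 1 and triangles replicate 2) and a bar at each group's mean. Both KO libraries lie above both WT libraries for Eef1a1, Eef1b2, Eef1d, Eef1g and Eef2 in both panels. Of all tested genes, 39.5% did so for footprints and 44.2% for implied RNA. Eef1a2 footprints lie lower in both KO libraries.

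By count, 0 of the 7 genes passed for footprints, where 0.379% of all 15031 tested genes did (57 genes by limma, 0.253% higher and 0.126% lower in KO), and 2 of the 7 had an unadjusted p under 0.05, against 17.3% of all. Both KO libraries lay above both WT libraries in footprints for 5 of the 7 genes, against 39.5% of all tested genes. They lay below for 1, against 12.1% (51.7% in either direction). With median-ratio scaling Eef1d and Eef2 footprints overlapped between the groups, while Eef1a1, Eef1b2 and Eef1g stayed higher and Eef1a2 lower. The share of all genes was not taken with that scaling. For implied RNA 2 of the 7 rose and 0 fell, where 4.2% of 12529 tested genes rose and 1.53% fell (5.73% in all; 526 higher and 192 lower, and 327 higher and 309 lower with median-ratio scaling). An unadjusted p under 0.05 was found for 4 of the 7 in implied RNA, against 28.3% of all. Both KO libraries lay above both WT libraries in implied RNA for 5 of the 7, against 44.2% of all. They lay below for 1, against 18.6% (62.8% in either direction). With median-ratio scaling Eef2 RNA overlapped between the groups, and Eef1a2 RNA lay lower in both KO libraries, as Eef2k RNA did. For TE 0 of the 7 passed by limma, as did 0 of all tested genes (0%), and 0 of the 7 had an unadjusted p under 0.05, against 6.06% of all. TE lay above in both KO libraries for 1 of the 7, against 24% of all, and below for 0, against 12% (35.9% in either direction). The median log2 difference of the 7 genes was 0.85 for footprints, 0.82 for implied RNA and 0.15 for TE, beside 0.36, 0.22 and 0.15 over all tested genes.

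The eEF1A pair differed in direction. Eef1a1 (ENSMUSG00000037742, chr9:78478453-78481724 in GRCm38) read 1611 and 1996 FPKM of footprints in the KO libraries, against 921 and 675 FPKM in the WT libraries. Both KO libraries were higher than both WT libraries, by 2.27-fold on the log2(FPKM + 1) scale (log2 difference 1.18, SE 0.25, 95% interval 0.56 to 1.81), or 0.82 above the median of all genes. This difference did not pass over all tested genes (limma, adjusted p = 0.154), and it passed when small RNA genes and unnamed models were left out of the fit (adjusted p = 0.048). Eef1a2 (ENSMUSG00000016349, chr2:181141758-181157015) read 82.3 and 112.6 FPKM of footprints in the KO libraries, against 132.2 and 149.4 FPKM in the WT libraries. Here both KO libraries were lower than both WT libraries, and the log2 difference was -0.54 (SE 0.28, 95% interval -1.23 to 0.14; adjusted p = 0.363 by limma, not past the threshold). It lay 0.90 below the median of all genes, where only 10.6% of tested genes had a lower or equal difference.

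The near-identical products of this pair come from separate genes with separate promoters, so stretches of their promoters are shown, with Eef2 and Eef1b2 beside them. Each runs from 100 bases before the annotated start to 30 bases from it, 5′ to 3′ on the gene's strand, taken from RefSeq on GRCm38.p6. They lie at chr9:78481695-78481824 (minus strand) for Eef1a1, chr2:181156986-181157115 (minus) for Eef1a2, chr10:81176531-81176660 (plus) for Eef2 and chr1:63176731-63176860 (plus) for Eef1b2. Capitals mark matches, on either strand, to TATAA, the GC box GGGCGG, the cyclic AMP response element TGACGTCA and the E-box CACGTG, and the Eef1b2 stretch holds none.
Eef1a1: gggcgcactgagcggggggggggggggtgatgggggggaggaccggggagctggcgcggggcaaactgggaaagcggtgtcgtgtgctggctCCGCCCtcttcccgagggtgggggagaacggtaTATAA
Eef1a2: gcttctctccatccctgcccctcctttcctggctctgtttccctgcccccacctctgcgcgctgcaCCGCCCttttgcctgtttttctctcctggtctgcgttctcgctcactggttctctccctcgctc
Eef2: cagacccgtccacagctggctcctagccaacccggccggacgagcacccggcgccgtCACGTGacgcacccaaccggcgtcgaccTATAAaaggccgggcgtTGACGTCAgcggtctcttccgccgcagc
Eef1b2: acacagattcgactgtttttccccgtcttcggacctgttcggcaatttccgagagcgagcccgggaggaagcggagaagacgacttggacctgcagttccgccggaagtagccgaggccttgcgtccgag
Promoter windows of 300 bases around annotated starts were held for 5 of the 7 genes, all but Eef1d and Eef1g. TATAA occurred in those of Eef1a1 and Eef2, and in 24.9% of all 32851 promoter windows. Counted from the annotated start, it lay at bases 26 to 30 in Eef1a1, after the start, and at bases -15 to -11 in Eef2. GGGCGG occurred in those of Eef1a1, Eef1a2 and Eef2k (35.7% of all windows), CACGTG in those of Eef2 and Eef2k (7.15%), and TGACGTCA in that of Eef2 (1.79%). CATTCC, the M-CAT element of muscle genes, occurred in a window of Eef2k alone among them (14.7% of all windows), and the CArG and MEF2 motifs in none of them (1.63% and 0.557% of all windows). None of the marked matches overlapped another. Such matches describe letters, and a missing match says only that these letters are not in the window.

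The ratio of Eef1a2 to Eef1a1 footprints, which does not depend on the scaling of a library, was 0.0511 and 0.0564 in the KO libraries, against 0.143 and 0.221 in the WT libraries. Put as a share of both genes, Eef1a2 made up 4.86% and 5.34% of eEF1A footprints per length in KO hearts and 12.5% and 18.1% in WT hearts. The ratio was 3.32-fold lower in KO (log2 difference -1.73), and it ranged from -2.04 to -1.42 when each library was left out in turn. The groups did not overlap, and the exact two-sided permutation test gave p = 0.333, the smallest value that 2 libraries against 2 allow.

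The ratio of implied RNA levels was also lower in KO hearts, by less. Their Eef1a2 to Eef1a1 ratio was 0.165 and 0.153 in the KO libraries, against 0.378 and 0.268 in the WT libraries, a log2 difference of -1.01 without overlap (exact permutation p = 0.333). For TE the ratio was 0.310 and 0.369 in the KO libraries, against 0.379 and 0.826 in the WT libraries. The TE groups were separated by a narrow gap, WT replicate 2 stood well above the other libraries, and the log2 difference was -0.73 (exact permutation p = 0.333). Without WT replicate 2 the TE difference was -0.16.

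**Figure D2:**
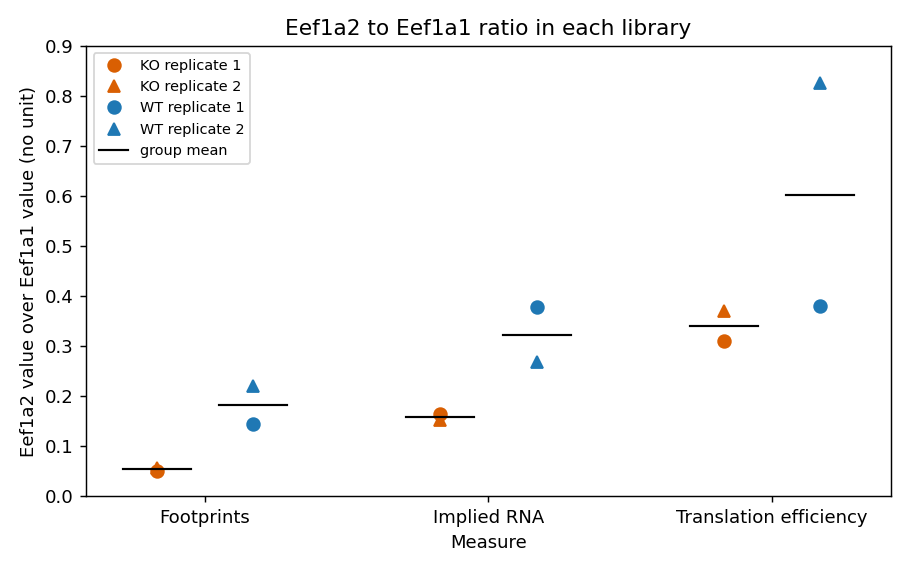
Ratio of Eef1a2 to Eef1a1 (vertical axis, no unit) for footprints, implied RNA and TE, with 1 point per library (KO orange, left of WT in blue) and a bar at each group's mean. The KO libraries lie below the WT libraries in all 3 measures, at 0.0511 and 0.0564 against 0.143 and 0.221 for footprints.

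On the deposited scale, most of the shift in the RNA ratio came with Eef1a1, and this split depended on scaling. Relative to the median of all genes, Eef1a1 RNA lay 0.67 above and Eef1a2 RNA 0.34 below. With median-ratio scaling Eef1a2 RNA was lower in both KO libraries (log2 difference -0.33, adjusted p = 0.381 by limma). The values that follow are on the deposited scale. Eef1a2 had 326 and 255 FPKM of implied RNA in the KO libraries, against 335 and 292 FPKM in the WT libraries, and these overlapped (log2 difference -0.12, SE 0.24, adjusted p = 0.772 by limma). Eef1a1 RNA was higher in both KO libraries by a log2 difference of 0.89 (SE 0.28, 95% interval 0.22 to 1.56) and did not pass (adjusted p = 0.104). Without KO replicate 2, Eef1a1 RNA passed (adjusted p = 0.019). Both eEF1A genes had low values of the deposited TE. How reads shared with near-identical copies were counted was not stated, so these TE values carry that uncertainty. TE of Eef1a1 was 0.814 and 1.19 in KO against 1.04 and 0.620 in WT, and that of Eef1a2 0.252 and 0.441 in KO against 0.394 and 0.512 in WT. In every library Eef1a1 stood at or below the 11.9th percentile of tested TE values and Eef1a2 at or below the 7.08th.

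Sums of cell type markers differed alongside this ratio. The summed footprints of 8 fibroblast markers, collagens and Tcf21 among them, were 52319 and 67695 FPKM in KO libraries, against 24549 and 19685 FPKM in WT libraries. The sum of 8 cardiomyocyte markers was 162146 and 168989 FPKM in KO, against 246931 and 293393 FPKM in WT. None of the markers of either list was at 0 in any library. All 8 fibroblast markers had both KO libraries above both WT libraries in footprints, against 39.5% of all tested genes. Of the 8 cardiomyocyte markers 7 had both below, against 12.1%. In either list 0 passed the threshold for footprints, where 0.379% of all did. Implied RNA of the fibroblast markers was less uniform: 5 of 8 lay higher in both KO libraries and 1 lower, against 44.2% and 18.6% of all. By limma 2 rose, Tcf21 and Postn, where 4.2% of all did. Pdgfra had the lowest difference (log2 -0.17). Whole hearts were used, so a change in the number of cells of a type and a change in RNA per cell cannot be told apart.

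Set against these markers, the differences of the pair depended on the marker list and the measure. Per 1000 FPKM of cardiomyocyte marker footprints, Eef1a2 had 0.507 and 0.666 FPKM in KO libraries, against 0.535 and 0.509 FPKM in WT libraries, and these overlapped. By implied RNA, Eef1a2 had 13.6 and 13.3 FPKM per 1000 FPKM of cardiomyocyte markers in KO, against 11.1 and 8.78 FPKM in WT. This was higher in both KO libraries (log2 difference 0.44), whereas the unscaled RNA level overlapped. Eef1a1 had 30.8 and 29.5 FPKM of footprints per 1000 FPKM of fibroblast markers in KO, against 37.5 and 34.3 FPKM in WT, lower in both KO libraries. By implied RNA this was 783 and 860 FPKM in KO, against 901 and 814 FPKM in WT, and the groups overlapped. Per 1000 FPKM of cardiomyocyte markers, Eef1a1 had 9.94 and 11.8 FPKM of footprints in KO, against 3.73 and 2.30 FPKM in WT. That log2 difference of 1.89 was larger than the unscaled 1.18, and the one for implied RNA, 1.45, was larger than the unscaled 0.89. The part of cell composition in the ratio was not tested beyond these values.

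**Figure D3:**
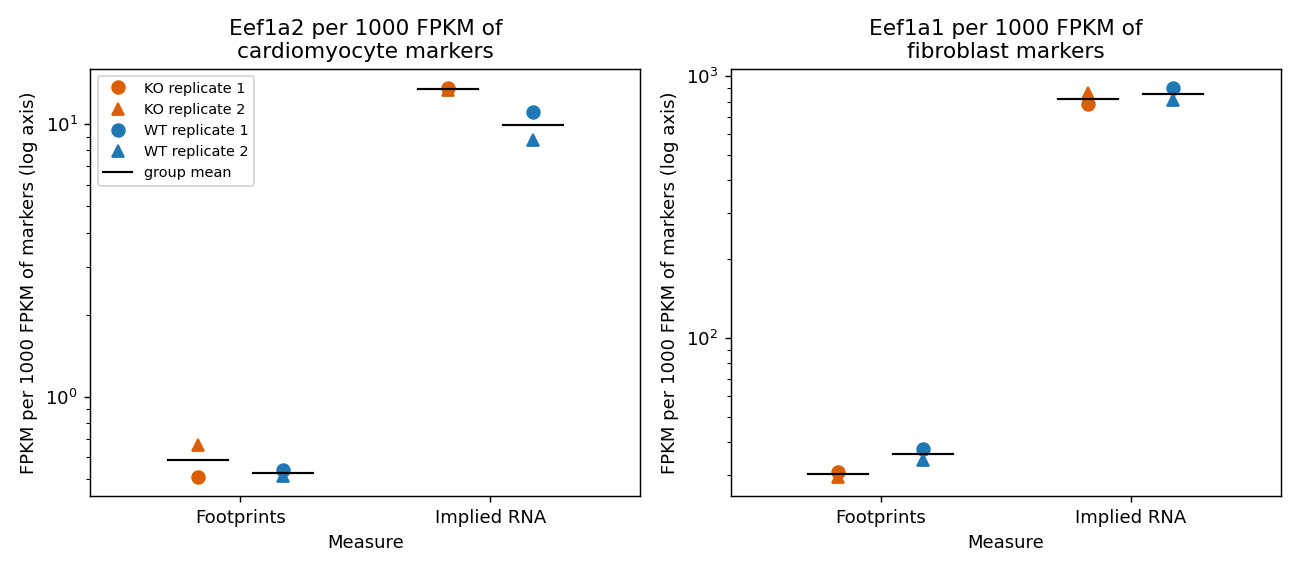
Eef1a2 per 1000 FPKM of 8 summed cardiomyocyte markers (left) and Eef1a1 per 1000 FPKM of 8 summed fibroblast markers (right), for footprints and implied RNA on log axes, with 1 point per library (KO orange, left of WT in blue) and a bar at each group's mean. For Eef1a2 footprints KO and WT overlap, at 0.507 and 0.666 against 0.535 and 0.509.

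Other cell types showed mixed sums. Endothelial markers summed to 6859 and 8655 FPKM of footprints in KO and 5343 and 5616 in WT, and macrophage markers to 873 and 1974 in KO and 541 and 872 in WT. Smooth muscle and pericyte markers summed to 4008 and 3835 FPKM in KO and 5062 and 5140 in WT. Most members of that list did not follow its sum. In both KO libraries 4 of 7 lay higher, against 39.5% of all tested genes, and 1 lower, against 12.1%. The lower one was Acta2, smooth muscle actin, at a log2 difference of -0.72, and the median difference was 0.46. By implied RNA the median log2 difference was -0.15 for endothelial, 0.75 for macrophage and -0.13 for smooth muscle and pericyte markers. Over all tested genes it was 0.22. Of the 8 macrophage markers 2 rose in implied RNA by limma, Lyz2 and C1qa, where 4.2% of all tested genes did. In the endothelial and the smooth muscle list 0 passed. Neurons and skeletal muscle also make Eef1a2. Neuron and Schwann cell markers summed to only 55.9 and 65.0 FPKM in KO and 33.8 and 26.9 in WT, with Snap25 and S100b at 0 in at least 1 library. Of the skeletal muscle markers, Actn3, Myh1, Myh4 and Tnnt3 were at 0 in at least 1 library, and the list's sum of 1539 and 2485 FPKM in KO and 2764 and 3151 in WT lay mostly in Ckm, the muscle creatine kinase, and Acta1, skeletal actin, both of which heart also makes.

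The eEF1B subunits read higher in KO hearts on the deposited scale, most clearly Eef1b2 and Eef1g at the RNA level. With median-ratio scaling the Eef1d footprint difference was 0.012, and its groups overlapped. Eef1b2 (ENSMUSG00000025967, chr1:63176831-63180486), the subunit that exchanges the nucleotide on eEF1A, had 622 and 728 FPKM of footprints in the KO libraries, against 242 and 241 FPKM in the WT libraries. The groups lay far apart relative to their spread, with a log2 difference of 1.48 (SE 0.22, 95% interval 0.95 to 2.01), 1.12 above the median of all genes. It did not pass over all tested genes (limma, adjusted p = 0.085) and passed without small RNA genes and unnamed models (adjusted p = 0.021). Eef1b2 RNA, as implied, stood at 206 and 129.7 FPKM in KO, against 57.6 and 73.3 FPKM in WT. It rose 2.52-fold (log2 difference 1.33, SE 0.28, adjusted p = 0.0485 by limma). The call was lost without WT replicate 1 (adjusted p = 0.197), with median-ratio scaling (adjusted p = 0.052) and without the mean-variance trend (adjusted p = 0.095).

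Eef1g (ENSMUSG00000071644, chr19:8967041-8978180), the subunit that anchors the complex, had 345 and 247 FPKM of implied RNA in the KO libraries, against 102.6 and 109.6 FPKM in the WT libraries. Its RNA rose 2.76-fold (log2 difference 1.46, SE 0.24, 95% interval 0.89 to 2.04, adjusted p = 0.031 by limma). The call was lost without WT replicate 1 (adjusted p = 0.112), without WT replicate 2 (adjusted p = 0.0504) and without the mean-variance trend (adjusted p = 0.068). Its footprints were few beside this RNA, at 26.4 and 48.1 FPKM in KO and 23.6 and 15.0 FPKM in WT, and KO replicate 1 lay close to WT replicate 1 (log2 difference 0.89, SE 0.46, adjusted p = 0.370). TE of Eef1g was 0.077 and 0.194 in KO and 0.230 and 0.137 in WT, which lay between the 0.910th and the 2.08th percentile of tested TE values. Eef1b2, by contrast, had TE values of 3.02 and 5.62 in KO and 4.19 and 3.29 in WT, between the 41.2nd and the 57.5th percentile. How reads shared with near-identical copies such as processed pseudogenes were counted was not stated, so levels of these genes carry that uncertainty.

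Eef1d (ENSMUSG00000055762, chr15:75894796-75909784), the second exchange subunit, had 411 and 407 FPKM of footprints in the KO libraries, against 284 and 345 FPKM in the WT libraries. Its log2 difference of 0.38 (SE 0.22, adjusted p = 0.408 by limma) was close to the median of all genes. Its implied RNA was 189 and 106.3 FPKM in KO, against 76.5 and 83.9 FPKM in WT (log2 difference 0.82, SE 0.30, adjusted p = 0.138), and passed without KO replicate 2 (adjusted p = 0.0056). The order of the exchange subunits turned with genotype. The ratio of Eef1b2 to Eef1d footprints was 1.51 and 1.79 in KO, against 0.851 and 0.699 in WT, and that of their implied RNA 1.09 and 1.22 in KO, against 0.753 and 0.873 in WT (exact permutation p = 0.333 for each, the smallest possible).

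Summed over Eef1b2, Eef1d and Eef1g, footprints came to 1059 and 1183 FPKM in KO and 549 and 601 FPKM in WT. For each FPKM of eEF1A (Eef1a1 plus Eef1a2) this was 0.625 and 0.561 in KO and 0.521 and 0.729 in WT, so that the groups overlapped. The same quotient of implied RNA was 0.321 and 0.251 in KO and 0.194 and 0.193 in WT, without overlap (exact permutation p = 0.333).

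Eef2 (ENSMUSG00000034994, chr10:81176631-81182509), the translocation factor, had 1345 and 2460 FPKM of footprints in the KO libraries, against 1303 and 1117 FPKM in the WT libraries. KO replicate 2 was high, and KO replicate 1 lay close to WT replicate 1. The log2 difference was 0.59 (SE 0.33, adjusted p = 0.393 by limma), and it was 0.16 without KO replicate 2. Implied RNA of Eef2 was 612 and 575 FPKM in KO, against 486 and 556 FPKM in WT (log2 difference 0.19, SE 0.23, adjusted p = 0.622). With median-ratio scaling that difference turned to -0.028. Relative to eEF1A, Eef2 RNA was lower in KO, at 0.265 and 0.299 FPKM for each FPKM of eEF1A, against 0.398 and 0.403 in WT, and these groups did not overlap (exact permutation p = 0.333).

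Eef2k (ENSMUSG00000035064, chr7:120842642-120907219), the kinase of eEF2, read 22.4 and 65.7 FPKM of footprints in the KO libraries, against 18.4 and 23.7 FPKM in the WT libraries. KO replicate 1 lay within the WT range and KO replicate 2 far above it, and the log2 difference of 0.85 (SE 0.57, adjusted p = 0.465 by limma) was 0.095 without KO replicate 2. Its implied RNA was slightly lower in both KO libraries (log2 difference -0.25, SE 0.23, adjusted p = 0.516). TE of Eef2k was 3.27 and 8.19 in KO, against 2.22 and 2.55 in WT, the only member whose TE groups did not overlap (log2 difference 1.12, SE 0.59, 95% interval -0.28 to 2.53, adjusted p = 0.828). Without KO replicate 2 that TE difference was 0.46, and without KO replicate 1 it was 1.78.

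**Figure D4:**
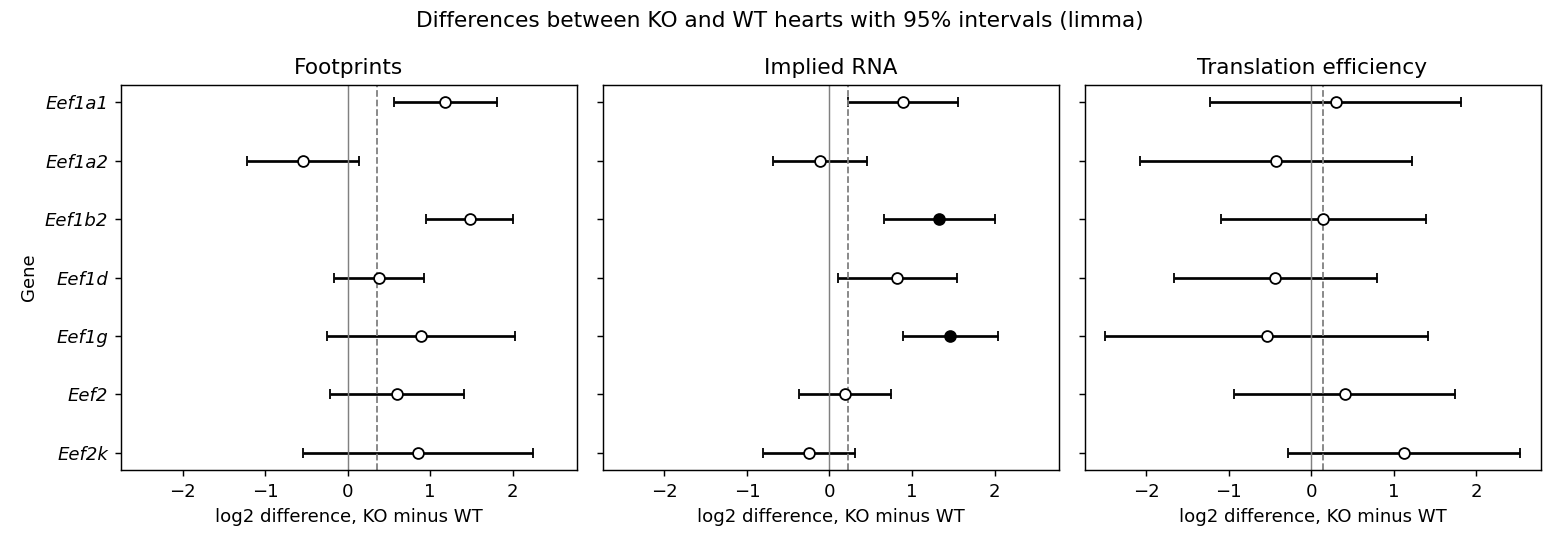
Log2 differences (KO minus WT, horizontal axes) of the 7 genes with 95% intervals from limma for footprints, implied RNA and TE; filled points have an adjusted p under 0.05, the solid line marks 0 and the dashed line the median of all tested genes. Filled points are Eef1b2 and Eef1g for implied RNA, and Eef1a2 alone lies below 0 for footprints, at -0.54.

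Genes that work beside these factors were read from lists chosen with earlier results of these data known. Of all tested genes, 0.379% passed for footprints, and 4.2% rose and 1.53% fell in implied RNA. Of 5 partners of the eEF1 complex, 0 passed for footprints (median log2 difference 0.74) and 1 rose in implied RNA (median 1.00), Eef1e1, a small scaffold protein of the tRNA synthetase complex, at 17.8 and 8.69 FPKM in KO against 2.68 and 3.22 in WT (log2 difference 2.08, adjusted p = 0.038 by limma). Eef1e1 also had the highest footprint difference of this list (1.22, adjusted p = 0.279), and Zpr1, a zinc finger chaperone of eEF1A, the lowest (0.36, adjusted p = 0.610). Of 12 tested enzymes that modify eEF1A or eEF2, 0 passed for footprints (median 0.04), with Dph5 of the diphthamide pathway highest (1.28, adjusted p = 0.183) and Dph7 of the same pathway lowest (-0.54, adjusted p = 0.491). In implied RNA 1 of the 12 rose (median 0.44), the lysine methyltransferase Eef1akmt4, at 10.9 and 5.99 FPKM in KO against 2.00 and 2.06 in WT (log2 difference 2.00, adjusted p = 0.035), while its footprints overlapped at 13.8 and 21.7 FPKM in KO and 15.6 and 12.6 in WT.

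The eIF5A, selenocysteine and termination factors had 0 of 10 tested genes past the threshold for footprints (median 0.51) and 0 of 9 for implied RNA (median 0.67). Eif5a2, a second form of eIF5A, was highest for footprints (1.96, adjusted p = 0.238; listed at 0 in WT replicate 2) and Secisbp2, which binds selenocysteine elements, lowest (0.08, adjusted p = 0.927). Of 10 genes that regulate or oppose eEF2K, 0 passed in either measure (median 0.36 for footprints and 0.11 for implied RNA), from Prkaa1, a catalytic subunit of AMP-activated kinase (1.13, adjusted p = 0.290), to Ppp2ca, the catalytic subunit of phosphatase 2A (-0.23, adjusted p = 0.727).

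The mitochondrial elongation factors, which serve ribosomes inside mitochondria, read the other way. All 5 lay below the median of all genes for footprints, with a median log2 difference of -0.51, and 0 passed. Gfm1, a mitochondrial elongation factor G, had 856 and 959 FPKM of footprints in KO and 1316 and 1269 in WT (log2 difference -0.51, adjusted p = 0.284 by limma; Gfm1 was picked after its values were seen). Tufm, the mitochondrial EF-Tu, was lowest (-1.06, adjusted p = 0.371) and Guf1, an EF4-like factor, highest (-0.32, adjusted p = 0.727). Implied RNA of the list had a median difference of -0.05.

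Eef1a1, Eef1b2, Eef1d, Eef1g and Eef2 belong to the mRNAs known to begin with a terminal oligopyrimidine (TOP) tract, through which mTOR controls their translation. Of 14 other TOP mRNAs outside the ribosomal proteins, 0 passed for footprints (median 0.82) and 4 rose in implied RNA (median 0.84): Pabpc1, the poly(A)-binding protein, Rack1, a protein of the small ribosomal subunit, Vim, the filament protein vimentin that fibroblasts also make, and Gas5, a host of small nucleolar RNAs (log2 differences 1.02, 1.298, 1.40 and 1.296, adjusted p = 0.043, 0.049, 0.047 and 0.049 in that order). Vim was highest for footprints (1.34, adjusted p = 0.152) and Naca, of the nascent chain complex, lowest (-1.004, adjusted p = 0.231). Their median TE difference was 0.03. Of 33 tested initiation factors, 0 passed for footprints (median 0.54) and 2 rose in implied RNA (median 0.58), Eif2s1, a subunit of eIF2, and Eif5, its GTPase activator (log2 differences 1.17 and 1.22, adjusted p = 0.036 and 0.047). Eif6, an anti-association factor, was highest for footprints (1.44, adjusted p = 0.150) and Eif4a2, an eIF4A helicase, lowest (-0.72, adjusted p = 0.221). The counts of these 2 lists stand beside 0.379% of all tested genes passing for footprints and 4.2% rising in implied RNA. Eif3e, Eif3f, Eif3h and Eif4b stand in both of them. Tpt1 stands among the other TOP mRNAs and among the partners of the eEF1 complex. Differences between the lists were not tested.

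**Figure D5:**
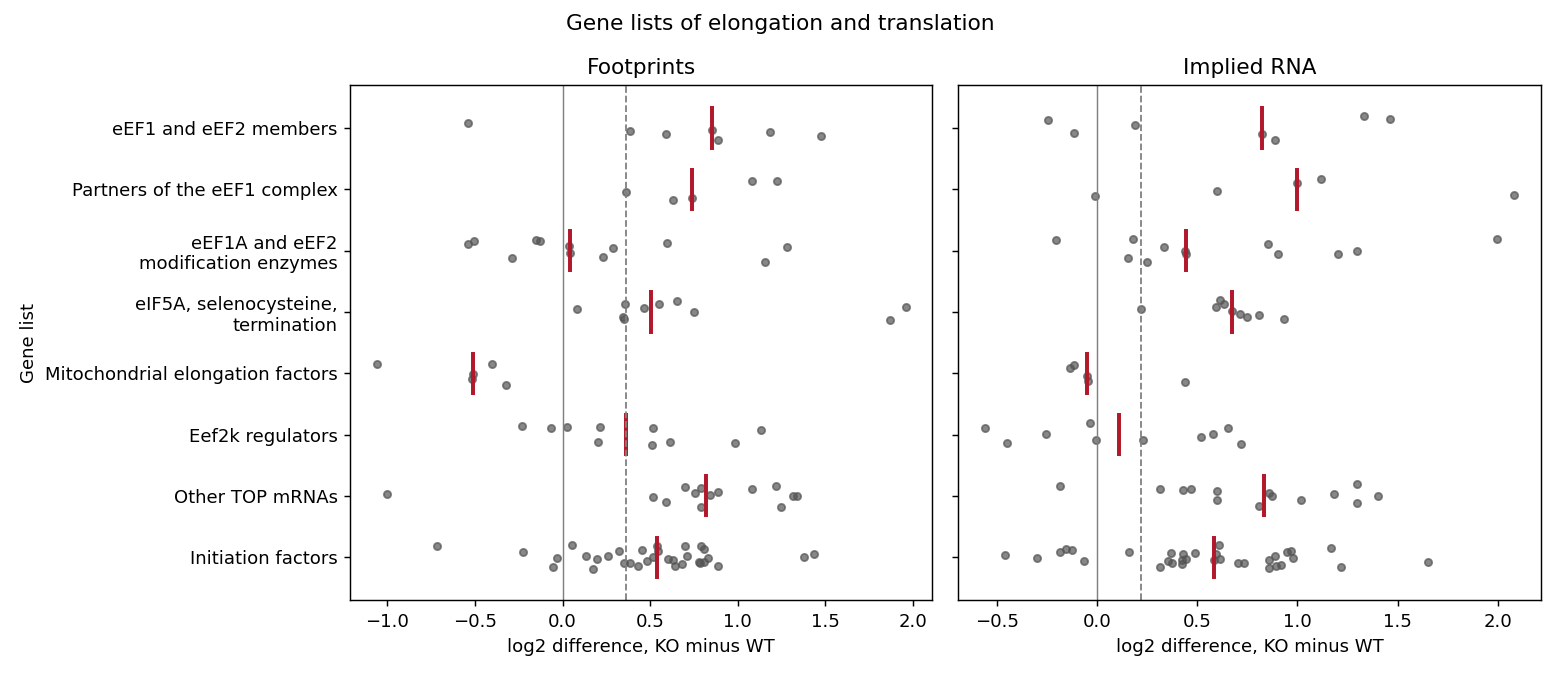
Log2 differences (KO minus WT, horizontal axes) of every tested gene in 8 lists for footprints (left) and implied RNA (right); grey points are genes, red bars list medians, the solid line 0 and the dashed line the median of all tested genes. The medians of the elongation factors and of the other TOP mRNAs lie at 0.85 and 0.82 for footprints, and that of the mitochondrial elongation factors at -0.51. Some lists share genes.

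The footprint profile of Eef1a1 over the 4 libraries was nearest to those of Elovl1, Ecm1, Smap1, Cyp20a1 and Lrrc59, among 2787 other named genes with a mean of at least 100 FPKM. Their Euclidean distances on centred log2(FPKM + 1) values ran from 0.020 to 0.088. Elovl1, the nearest, had 193 and 239 FPKM in KO and 108.2 and 79.4 in WT. The profile of Eef1a2 was nearest to those of Calcoco1, Frmd5, Gmpr, Slc25a4 and Cisd1, at distances of 0.032 to 0.120. Calcoco1 had 117 and 156.7 FPKM in KO and 186 and 214 in WT. With 4 libraries many profiles are alike.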

How the data were processed

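Ribosome footprints of 2 KO and 2 WT mouse hearts were used. The authors deposited footprint levels in FPKM and a translation efficiency (TE), a ratio, with 1 value per gene and library. The submitters' processing notes list, with no roles, Cufflinks 2.2.1, STAR 2.7.4a, HTSeq 0.13.5, Bowtie 1.3.1, FastQC 0.11.9 and cutadapt 3.7, and the builds GRCm38 and mm10. Settings, strand handling and the origin of the RNA in TE were not stated there. Each footprint FPKM was divided by its TE, and all 59296 quotients had 6 or fewer significant digits (100%, within a relative 1e-10), as a deposited level would; this is the implied RNA level. A TE of 0 was taken as missing.

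Genes with at least 1 FPKM in at least 2 libraries were tested (15031), and those with TE above 0 in all 4 for TE and RNA (12529). limma 3.58.1 in R 4.3.3 (lmFit, eBayes with trend) was run on log2(FPKM + 1), log2(TE) and log2 of the quotient, two-sided, with Benjamini-Hochberg adjustment over all tested genes and a threshold of 0.05. Fold changes of footprints are on the log2(FPKM + 1) scale, which understates changes of low genes. The limma fit was tested on simulated data. Ratios were compared by exact permutation with scipy 1.17.1. FPKM holds no counts, so precision rests on the number of libraries. Alternatives were another pseudocount, other filters, median-ratio scaling, no trend, no small RNA genes, a replicate block and each library left out. Named genes were the 7 members, Nat10, list members past the threshold or with the highest and lowest footprint difference, the 5 nearest profiles, and the paralogue pairs given under the other observations. The members, lists and tests were chosen with earlier results of these data known. Protein sequences were not used here. Markers of 1 further cell type are not reported here.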

Additional observations from a re-analysis of the deposited data

How the results depend on the processing

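The difference in the Eef1a2 to Eef1a1 ratio kept its sign under each alternative run, with a log2 difference of -2.04 to -1.42 for footprints, -1.25 to -0.76 for implied RNA and -1.29 to -0.16 for TE when each library was left out. The count of members past the threshold for footprints was 2 (Eef1a1 and Eef1b2) without small RNA genes and unnamed models, where fewer genes were tested, and 0 under the other alternatives. For implied RNA it was 2 in the reported fit, 1 with median-ratio scaling (Eef1g), 0 without a mean-variance trend, and 0 to 4 when each library was left out: 0 without WT replicate 1, 1 without WT replicate 2 (Eef1b2) and 4 without KO replicate 2 (Eef1a1, Eef1b2, Eef1d and Eef1g). For TE it was 0 throughout. The numbering of replicates did not pair the libraries: same-numbered libraries deviated with r = -0.06 for footprints, -0.02 for TE and -0.22 for RNA across genes. With a replicate block 0, 0 and 2 members passed for footprints, TE and RNA. The block leaves a difference of group means unchanged by arithmetic, so the ratio differences were again -1.73, -0.73 and -1.01. Crossed pairing, chosen after seeing the data, gave 4 for RNA. The cause of these changes was not tested. Over all genes, footprint calls were 38 higher and 19 lower, 166 and 50 without small RNA genes, 118 and 25 with the replicate block, 23 and 11 with a pseudocount of 0.1, 7 and 1 without a filter, 23 and 13 without a trend, and 0 and 0 when any 1 library was left out. TE calls were 0 and 0, 126 and 52 with the block, 23 and 10 without WT replicate 1 and 6 and 2 without WT replicate 2. RNA calls were 526 and 192, 1028 and 401 with the block, 2412 and 829 with crossed pairing, 50 and 17 without a trend, 891 and 269 without WT replicate 2 and 2632 and 1110 without KO replicate 2. For single genes the sign turned in 7 of 238 comparisons, many of which could not turn it. Other filters, no trend, no small RNA genes and a block leave a gene's difference unchanged. All 7 turns came with median-ratio scaling or with a library left out. With median-ratio scaling Eef2 RNA was -0.028. Leaving out each library gave -0.077 to 0.67 for TE of Eef1a1 (lowest without WT replicate 2), -0.30 to 0.60 for TE of Eef1b2 (-0.30 without KO replicate 2, -0.03 without WT replicate 2), -1.21 to 0.13 for TE of Eef1g (highest without KO replicate 1), -0.077 to 0.88 for TE of Eef2 (lowest without KO replicate 2) and -0.29 to 0.060 for RNA of Eef1a2 (highest without KO replicate 2). The number of libraries, 2 per group, limits every test.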

Other observations

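Other pairs of related muscle genes, read in the same way, gave the following ratios. Rpl3l, the striated muscle form of the ribosomal protein Rpl3, stood to Rpl3 at 0.394 and 0.461 in footprints of KO hearts, against 2.04 and 4.55 in WT hearts, and at 0.010 and 0.013 in implied RNA of KO hearts, against 0.223 and 0.112 in WT hearts. The log2 differences were -2.84 and -3.75, both larger in size than that of Eef1a2 to Eef1a1, and the groups did not overlap (exact permutation p = 0.333, the smallest that 2 libraries against 2 allow). The footprint ratio of Myh6, the adult alpha myosin heavy chain of the mouse ventricle, to the fetal beta form Myh7 was 659 and 39.4 in KO hearts, against 4277 and 7871 in WT hearts, and KO replicate 2 lay far below KO replicate 1. By implied RNA the Myh6 to Myh7 ratio was 105 and 174 in KO hearts, against 419 and 364 in WT hearts. The log2 difference was -1.53 for implied RNA and -5.17 for footprints. The footprint ratio of Tnni3, cardiac troponin I, to Tnni1, its fetal form, was 100.6 and 137.4 in KO hearts, against 130.5 and 424 in WT hearts, and these groups overlapped. Its implied RNA ratio also overlapped, at 203 and 281 in KO hearts and 737 and 64.9 in WT hearts. Differences between the pairs were not tested.

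Entries named as pseudogenes of the family held few footprints. Eef1a1-ps1 had 0.164 and 1.64 FPKM in KO libraries, against 0.113 and 0.250 FPKM in WT libraries. Eef2-ps2 had 0.181 and 1.01 FPKM in KO, against 0.180 and 0.090 FPKM in WT, and Eef1a1-ps2 was listed at 0 in all 4 libraries. KO replicate 2 was the highest library for both.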
